A study of Mus musculus with 12 samples.

Results

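The genes described here encode synaptotagmins, syntaxins, VAMPs, SNAP proteins, synapsins and SV2 proteins. They were all rows of the deposited table whose symbol starts with Syt, Stx, Vamp or Snap followed by a digit, or is *Syn1* to *Syn3* or *Sv2a* to *Sv2c*. This gave 51 of 56748 genes: 17 synaptotagmins, 7 syntaxins of the plasma membrane, 8 syntaxins of endosomes, Golgi and endoplasmic reticulum, 7 VAMPs, 4 members of the SNAP25 family, 3 synapsins and 3 SV2 proteins. *Snap91*, which encodes the clathrin adaptor AP180 and is not a SNARE, and the pseudogene *Vamp7-ps* matched the same name pattern and completed the set. Polyribosome-bound RNA pulled down from rods (Rod-TRAP) and total RNA of the whole retina were sequenced from 2 genotypes of mice, with 3 libraries in each of 4 groups. Control mice (genotype Pkm2_Rodhet, RiboTag;Pkm2fl/+;i75-Rod-Cre) carried 1 floxed *Pkm2* allele, and Pkm2_Rodko mice (RiboTag;Pkm2fl/fl;i75-Rod-Cre) carried both alleles floxed, so that both genotypes carried Cre and the tagged ribosomal protein. The rhodopsin-Cre line i75 expresses Cre in rods, and controls can therefore lack 1 *Pkm2* allele there. The deposited description gives an age of 2 weeks and the methods 2 months.

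Transmitter release needs a SNARE complex, in which a vesicle SNARE of the VAMP family pairs with a syntaxin and a SNAP25-type protein on the plasma membrane. Synaptotagmins sense calcium and trigger fusion, synapsins tether vesicles in the reserve pool of conventional synapses, and SV2 proteins are glycoproteins of the vesicle membrane. Rods release glutamate at ribbon synapses, where syntaxin-3 is the known plasma membrane syntaxin, and synapsins are known to be lacking there.

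Sequences upstream of 2 SV2 genes are shown, because *Sv2b* and *Sv2a* differed in opposite directions between rods and retina. They are the 250 bases before a transcription start in RefSeq (GRCm38.p6), whereas the processing notes of the study name GRCm39. The capitals mark TAATCC, a core sequence bound by OTX-type homeodomain factors such as the photoreceptor factor CRX.
*Sv2b*, chr7:75309263-75309512, minus strand: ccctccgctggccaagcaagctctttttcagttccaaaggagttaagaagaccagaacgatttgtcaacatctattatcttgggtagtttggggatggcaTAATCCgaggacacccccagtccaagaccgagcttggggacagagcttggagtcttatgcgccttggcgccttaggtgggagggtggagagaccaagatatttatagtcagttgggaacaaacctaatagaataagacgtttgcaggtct
*Sv2a*, chr3:96180977-96181226, plus strand: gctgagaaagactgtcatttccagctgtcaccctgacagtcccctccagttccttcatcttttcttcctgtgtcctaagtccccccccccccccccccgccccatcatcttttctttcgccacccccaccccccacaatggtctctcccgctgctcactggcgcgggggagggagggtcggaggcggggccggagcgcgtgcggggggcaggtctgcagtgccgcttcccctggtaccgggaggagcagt
Of the 51 genes, 39 had a promoter window of 300 bases (250 before and 50 after the start) in this table. TAATCC or its reverse complement GGATTA was found in 2 of these 39 genes (5.13%), against 8.14% of all 27025 genes with a window. Counted by window, they were in 3 of 54 windows of these genes (5.56%) and in 7.06% of all 32851 windows. *Sv2b* had the letters in 2 of its 4 windows, and in the window shown they begin 150 bases before the start. *Stx3* had them in its 1 window, 30 bases after the start, and *Sv2a* had none in its 1 window. Binding at these letters was not tested.

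Libraries held 13458890 to 22790074 reads. The fractions matched their labels, in that all 17 rod markers tested higher in rods (median log2 fold change 1.92 in control). *Pkm*, which counts both the floxed *Pkm2* and *Pkm1*, had 51049 to 54504 deposited units in control rods and 22246 to 23751 in Pkm2_Rodko rods (log2 fold change −1.20 ± 0.08 SE, limma adjusted p = 4.58e-05). No marker of any of the 7 cell types listed was at 0 in all rod libraries. Amacrine markers (12 genes) were 3.02 lower in rods than in retina on the log2 scale at their median in control, bipolar markers (14 genes) 3.05 lower and Müller glia markers (10 genes) 2.87 lower. Cone markers (10 genes) were only 0.72 lower, with summed levels of 10180 to 12173 scaled reads in control rods and 17257 to 18471 in control retina. Of the 14 bipolar markers, 2 were higher in rods and 11 lower, and their sums were 16044.1 to 17012.5 and 33016.3 to 34557.8 scaled reads. The summed level of amacrine markers was 2474 to 3511 scaled reads in control rods and 20401 to 21235 in control retina.

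The comparison of control rods with control retina asks which isoforms are used in rods. Reads were scaled by TMM over all 12 libraries, and levels of genes were set beside each other only per kilobase (kb) of exon. Of the 51 genes, 49 passed the filter (a mean of at least 1 scaled read over the 12 libraries), of which 9 were higher in rods and 37 lower (limma, adjusted p under 0.05 over all genes), while 26.7% of all 22539 genes tested were higher and 38.6% lower. *Stx11* and *Stx19*, both among the 37, passed this filter through their retina values. In the rod libraries alone both were below a mean of 1 deposited unit. The median log2 fold change was −1.21 over the 49 genes and −0.29 over all genes. The 9 higher genes were *Sv2b*, *Stx3*, *Snap91*, *Vamp8*, *Vamp2*, *Stx18*, *Stx8*, *Stx12* and *Syt1*. The sign of the small differences depended on the scale, because the median gene itself lay at −0.80 with total-read scaling and at −0.83 in the deposited values, where 2 of the 49 genes were higher and 42 and 44 lower. Of all genes, 9.74% were higher and 54.2% lower with total reads, and 8.66% and 56.1% in the deposited values. *Sv2b* and *Stx3* were the 2 that were higher under each of the 4 scalings, *Snap91* was above 0 but past the threshold only under TMM and median-of-ratios (RLE) scaling, and the other 6 turned below 0 with total reads and in the deposited values. Each of the 9 genes lay at least 0.52 above the median gene on the TMM scale. Rods make up part of the retina, the rod value is ribosome-bound RNA and the retina value total RNA, so that cell type and ribosome binding cannot be told apart. In the retina, fewer cells of a type and less RNA per cell cannot be told apart either.

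**Figure D1:**
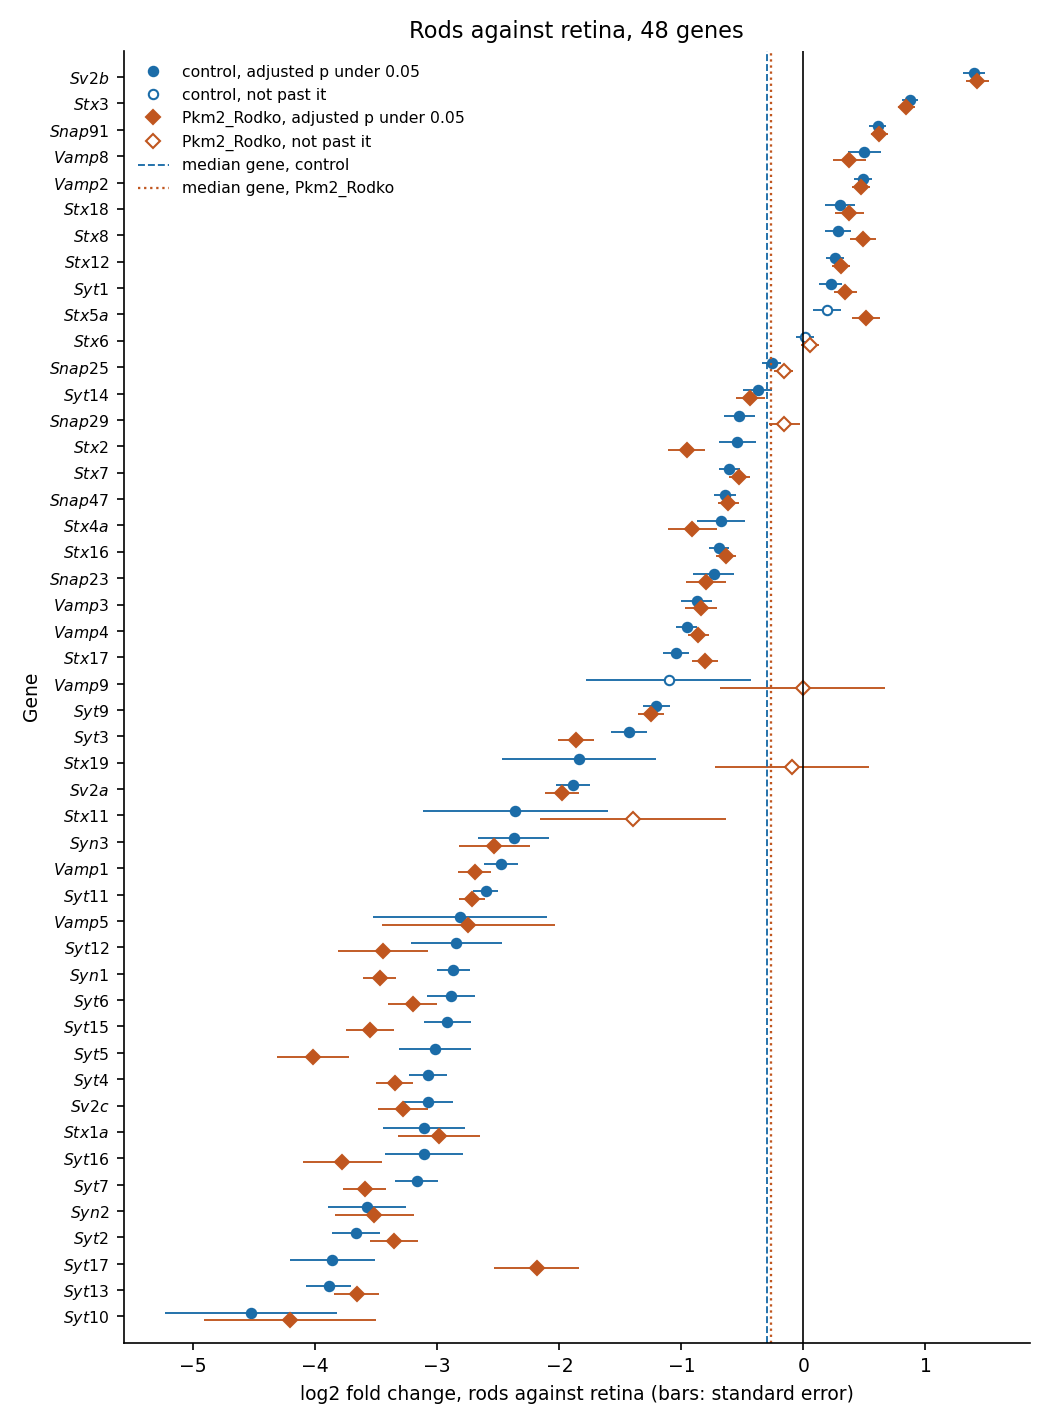
Log2 fold change of rods against retina (x axis) for 48 of the 49 genes tested, in control (circles) and Pkm2_Rodko mice (diamonds); bars are standard errors, filled symbols passed an adjusted p of 0.05, and broken lines mark the median of all genes (−0.29 and −0.26). *Sv2b* and *Stx3* lie farthest to the right in both genotypes, and 15 of 16 synaptotagmins lie to the left of 0 in both.

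The most abundant plasma membrane syntaxin in rods was *Stx3*, the syntaxin known from ribbon synapses. Its level was 3703, 3662 and 3653 scaled reads per kb in control rods and 1955, 2108 and 1955 in control retina. All rod libraries were above all retina libraries, and *Stx3* was 1.83-fold higher in rods (log2 fold change 0.87 ± 0.07 SE, limma adjusted p = 2.67e-08), 1.17 above the median gene. *Stx1a*, a syntaxin of conventional synapses, was far less abundant, with 5.53, 9.77 and 3.58 scaled reads per kb in control rods and 50.8, 52.0 and 56.3 in control retina. Only 6 to 28 reads stood behind each control rod value of *Stx1a*, which was 8.62-fold lower in rods without overlap (log2 fold change −3.11 ± 0.34, limma adjusted p = 9.30e-07). Median log2 fold changes of amacrine, bipolar, ganglion cell and horizontal cell markers were −3.02, −3.05, −3.02 and −3.37. Those of Müller glia and cone markers were −2.87 and −0.72. The part of RNA from other cells in the rod values of *Stx1a*, other genes lower in rods and the family shares was not tested.

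Of the 7 plasma membrane syntaxins, *Stx3* took 93.6% ± 0.97 (SD, n = 3) of the family in control rods per kb and 63.9% ± 1.8 in control retina, while *Stx1a* took 0.160% and 1.69%. *Stx4a* and *Stx2*, which serve constitutive exocytosis in many cells, were lower in rods by 0.67 and 0.54 on the log2 scale and took 2.59% and 0.53% of the family there. *Stx4a* shares 5.25% of its exonic bases with a gene on the other strand, and the strand setting of the counting is not given in the sources used here. *Stx11* and *Stx19* were close to absent. *Stx11* had 1 read in the 3 control rod libraries and 26 in the 3 control retina libraries, a 16.3-fold ratio with a 95% exact counting interval from 2.68 to 668. *Stx19* had 0 reads in control rods and 10 in control retina, which makes it at least 2.09-fold lower against a floor of 3 reads over the 3 libraries. *Stx11* no longer passed without control retina replicate 3 (limma adjusted p = 0.0566), nor *Stx19* without control retina replicate 1 (0.0740). With *Stx19* at that bound, the median over the 49 genes was −1.10.

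SV2 proteins divided in the same way. *Sv2b* had 2848, 2686 and 2584 scaled reads per kb in control rods and 1051, 1100 and 939 in control retina. It showed the largest positive difference of the 49 genes, 2.63-fold higher in rods without overlap (log2 fold change 1.40 ± 0.09, limma adjusted p = 3.54e-09). *Sv2a*, the isoform found at most synapses of the brain, had 313, 475 and 299 scaled reads per kb in control rods and 1325, 1394 and 1230 in control retina, and was 3.71-fold lower in rods (log2 fold change −1.89 ± 0.14, limma adjusted p = 1.22e-08). Its highest rod library was below its lowest retina library. *Sv2b* took 88.0% ± 2.9 (SD, n = 3) of the SV2 family in control rods and 42.7% ± 0.55 in control retina, where *Sv2a* took 54.6% ± 0.49. *Sv2c* was 8.45-fold lower in rods and took 0.256% of the family there against 2.73% in retina.

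**Figure D2:**
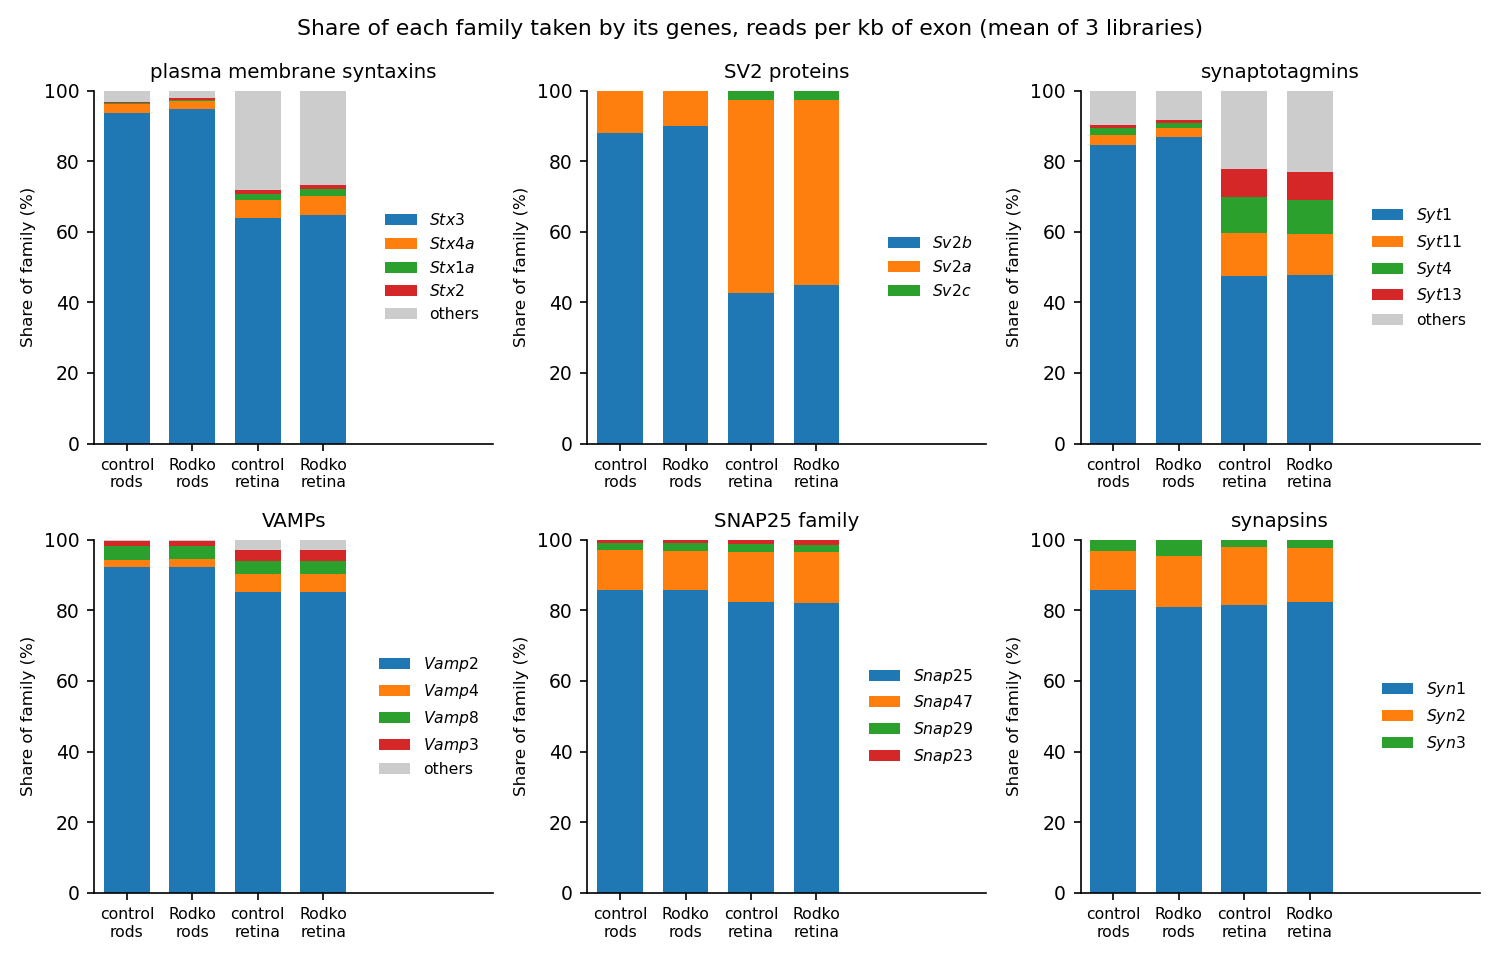
Mean share (y axis, percent, n = 3 libraries) that each gene took of its family, from reads per kb of exon, in control rods, Pkm2_Rodko rods, control retina and Pkm2_Rodko retina; "others" sums the remaining genes of the family. *Stx3*, *Sv2b* and *Syt1* take larger shares in both rod groups than in both retina groups, whereas *Snap25* and *Syn1* take 81.0% to 85.8% of their families in all 4 groups.

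Among synaptotagmins, *Syt1*, the fast calcium sensor of most synapses, was the most abundant in both fractions. It had 2845, 2950 and 2533 scaled reads per kb in control rods and 2373, 2609 and 2159 in control retina, and the libraries overlapped. The difference of 0.22 ± 0.09 on the log2 scale just passed the test (limma adjusted p = 0.0468) and lay 0.52 above the median gene. It no longer passed in 7 of the 12 fits that left out 1 library, those without control rods replicate 1 or 2, control retina replicate 1 or 3, or any of the 3 Pkm2_Rodko retina libraries (limma adjusted p up to 0.191). *Syt2*, the paralog used at fast synapses, had 6.43, 6.21 and 3.54 scaled reads per kb in control rods and 73.1, 63.1 and 67.4 in control retina. It was 12.7-fold lower in rods, without overlap (log2 fold change −3.67 ± 0.20, limma adjusted p = 5.71e-10).

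The other 14 synaptotagmins tested were lower in rods as well. *Syt14* was the least different of them (−0.37 on the log2 scale), followed by *Syt9* (−1.21), a calcium sensor related to *Syt1* and *Syt2*, and *Syt3* (−1.43). *Syt11* and *Syt4*, which do not bind calcium in the manner of *Syt1*, were 6.08-fold and 8.44-fold lower, and *Syt7*, a slow sensor of high calcium affinity, 9.0-fold lower. *Syt4* shares 14.5% of its exonic bases with an antisense gene, and *Syt12* 17.2%. *Syt5*, *Syt6*, *Syt12*, *Syt15* and *Syt16* differed by −3.11 to −2.84 on the log2 scale.

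The largest negative differences were also among synaptotagmins. *Syt10*, a calcium sensor of growth factor secretion, had 0, 2.52 and 1.72 scaled reads per kb in control rods (0, 5 and 2 reads) and 34.2, 40.5 and 31.8 in control retina (log2 fold change −4.53 ± 0.70, limma adjusted p = 4.22e-05). *Syt13* had 18.7, 39.3 and 25.8 scaled reads per kb in control rods and 413, 403 and 383 in control retina, with no overlap (log2 fold change −3.89 ± 0.18, limma adjusted p = 1.59e-10). *Syt17* had 1 read in each control rod library and 36 to 44 in each control retina library (0.315, 0.179 and 0.305 against 6.87, 6.22 and 6.13 scaled reads per kb). At 3 reads against 123, its retina level was 25.7-fold the rod level, with a 95% exact counting interval from 8.59 to 126. *Syt8* had 0 reads in all 12 libraries and was not tested. *Syt1* thus took 84.5% ± 1.1 (SD, n = 3) of synaptotagmin transcripts per kb in control rods and 47.4% ± 1.6 in control retina. The summed synaptotagmin level was 3286 ± 253 scaled reads per kb in control rods and 5016 ± 345 in control retina.

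*Vamp2*, the main vesicle SNARE of neurons, had the highest level per kb of all 51 genes in all 4 groups. It had 6170, 6316 and 6265 scaled reads per kb in control rods and 4653, 4398 and 4320 in control retina, and was 1.40-fold higher in rods without overlap on this scale (log2 fold change 0.49 ± 0.07, limma adjusted p = 3.17e-05), while it lay at −0.062 with total-read scaling. *Vamp1*, which takes its place at many fast synapses, had 20.8, 27.6 and 25.8 scaled reads per kb in control rods and 137, 135 and 139 in control retina. It was 5.57-fold lower in rods (log2 fold change −2.48 ± 0.14, limma adjusted p = 6.48e-10), with a wide gap between the fractions. *Vamp8*, an endosomal SNARE, had 265, 222 and 341 scaled reads per kb in control rods and 202, 174 and 201 in control retina, 1.41-fold higher without overlap (log2 fold change 0.50 ± 0.14, limma adjusted p = 0.00470). This difference too was below 0 with total-read scaling (−0.050).

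*Vamp3* and *Vamp4*, SNAREs of endosomal recycling, were 0.88 and 0.96 lower in rods on the log2 scale. *Vamp5* had 3 to 5 reads per control rod library and 28 to 75 per control retina library (−2.82 ± 0.71, limma adjusted p = 0.00272), and *Vamp9* had 1 to 7 reads in the control libraries and did not pass (−1.10 ± 0.68). *Vamp2* took 92.2% ± 0.67 (SD, n = 3) of VAMP transcripts per kb in control rods and 85.1% ± 0.62 in control retina. *Vamp7-ps* had 3 reads in all 12 libraries together. No gene row of the deposited table carried the symbol *Vamp7*, so the VAMP shares do not include it.

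*Snap25*, the plasma membrane partner in the SNARE complex, had 3229, 3274 and 3257 scaled reads per kb in control rods and 4183, 3970 and 3567 in control retina. It was lower in rods without overlap (log2 fold change −0.26 ± 0.07, limma adjusted p = 0.00636) but lay 0.03 above the median gene. It took 85.8% ± 0.92 (SD, n = 3) of its family in control rods and 82.4% ± 1.0 in control retina. *Snap23*, *Snap29* and *Snap47*, which act in other membrane fusion steps, were lower in rods by 0.74, 0.52 and 0.64 on the log2 scale. *Snap47* shares 11.6% of its exonic bases with *Jmjd4* on the other strand. *Snap91* had 901, 829 and 822 scaled reads per kb in control rods and 567, 581 and 524 in control retina, 1.53-fold higher without overlap (log2 fold change 0.61 ± 0.07, limma adjusted p = 1.82e-06).

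Synapsin transcripts were low in rods. *Syn1* had 43.7, 64.6 and 50.1 scaled reads per kb in control rods and 383, 369 and 397 in control retina, 7.31-fold lower without overlap (log2 fold change −2.87 ± 0.14, limma adjusted p = 1.78e-10). *Syn2* had 6.05, 12.6 and 3.17 scaled reads per kb in control rods and 71.4, 77.4 and 79.4 in control retina, 11.9-fold lower (log2 fold change −3.58 ± 0.32, limma adjusted p = 1.26e-07). *Syn3* was 5.18-fold lower and shares 14.1% of its exonic bases with *Timp3*. Summed over the 3 genes, the synapsin level was 61.9 ± 14.7 scaled reads per kb (SD, n = 3) in control rods and 469 ± 13.8 in control retina. These differences of −3.58 to −2.37 lie near the medians of amacrine (−3.02), ganglion cell (−3.02), bipolar (−3.05), Müller glia (−2.87) and horizontal cell markers (−3.37). The part of RNA from other cells in the rod values was not tested.

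The 8 syntaxins of internal membranes differed by −1.05 to 0.30 on the log2 scale, with 3 higher, 3 lower and 2 not past the threshold, and with 0 higher and 7 lower with total-read scaling. *Stx12*, an endosomal syntaxin, was the most abundant, with 568, 581 and 556 scaled reads per kb in control rods and 505, 476 and 448 in control retina (log2 fold change 0.26 ± 0.07, limma adjusted p = 0.00653). *Stx8*, of endosomes, and *Stx18*, of the endoplasmic reticulum, were higher by 0.29 and 0.30. These 3 genes were below 0 with total-read scaling (−0.29, −0.26 and −0.25). *Stx8* no longer passed without control rods replicate 1 or 3 or control retina replicate 2 or 3 (limma adjusted p up to 0.0918), and *Stx18* without any 1 control rod library or control retina replicate 1 or 3 (up to 0.133). *Stx18* did not pass with rods and retina of the same number blocked (limma adjusted p = 0.0503), and on the other strand it shares 19.8% of its exonic bases with *Gm42858* and 12.5% with *Nsg1*. *Stx7*, *Stx16* and *Stx17* were lower by 0.61, 0.69 and 1.05, and *Stx5a* and *Stx6*, of the Golgi, did not pass (0.19 ± 0.11 and 0.01 ± 0.07).

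**Figure D3:**
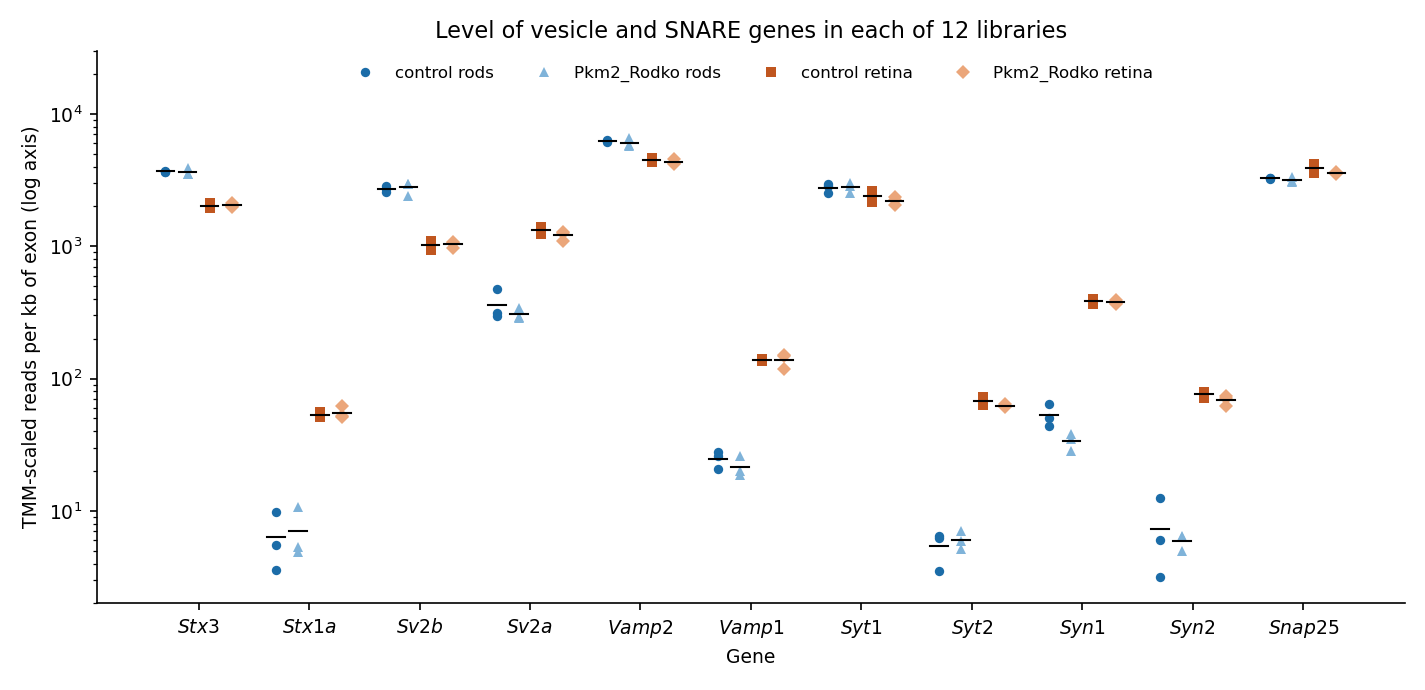
Level (y axis, TMM-scaled reads per kb of exon, log axis) of 11 genes in each of the 12 libraries; each point is 1 library and each black line the mean of 3. *Stx1a*, *Sv2a*, *Vamp1*, *Syt2*, *Syn1* and *Syn2* lie lower in all 6 rod libraries than in all 6 retina libraries, and *Stx3*, *Sv2b* and *Vamp2* higher.

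The order of levels per kb also differed. In control rods it was *Vamp2* (6251 ± 74.0 scaled reads per kb, SD, n = 3), *Stx3* (3672 ± 26.7), *Snap25* (3253 ± 22.8), *Syt1* (2776 ± 217) and *Sv2b* (2706 ± 133), of which *Syt1* and *Sv2b* did not differ beyond their spread. In control retina it was *Vamp2* (4457 ± 174), *Snap25* (3906 ± 313), *Syt1* (2380 ± 225), *Stx3* (2006 ± 88.2) and *Sv2a* (1316 ± 82.2). *Sv2b* followed there in the sixth place, and the libraries of neighbours in that order did not overlap. Both orders rest on the exon lengths used, whose error the spread between libraries does not measure.

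A ratio of 2 genes within a library is free of the scaling between libraries. For 5 pairs reported of 6 computed, log2 ratios of reads were compared between the 6 rod and 6 retina libraries of both genotypes by an exact two-sided permutation test, whose smallest possible p is 0.00216. *Stx3* over *Stx1a* was 9.40 to 10.87 in rods and 6.19 to 6.43 in retina on the log2 scale, a 14.7-fold shift. The shift was 13.8-fold for *Syt1* over *Syt2*, 10.2-fold for *Sv2b* over *Sv2a* and 8.37-fold for *Vamp2* over *Vamp1*, each towards the first gene in rods. In these 4 pairs every rod library exceeded every retina library, and each reached the smallest exact p of 0.00216 (0.00260 adjusted over the 6 pairs). That test treats rods and retina of the same number as unrelated. With these paired, an exact sign-flip test gave p = 0.03125 for *Stx3* over *Stx1a* (0.0375 adjusted over the 6 pairs). *Syn2* over *Syn1* was −2.81 to −1.04 in rods and −1.49 to −1.16 in retina, and the mean difference of −0.36 did not pass (exact permutation p = 0.173). Per kb, *Sv2b* exceeded *Sv2a* 7.62-fold in control rods, whereas *Sv2a* exceeded *Sv2b* 1.28-fold in control retina. The part of RNA from other cells in the rod reads of these pairs was not tested.

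**Figure D4:**
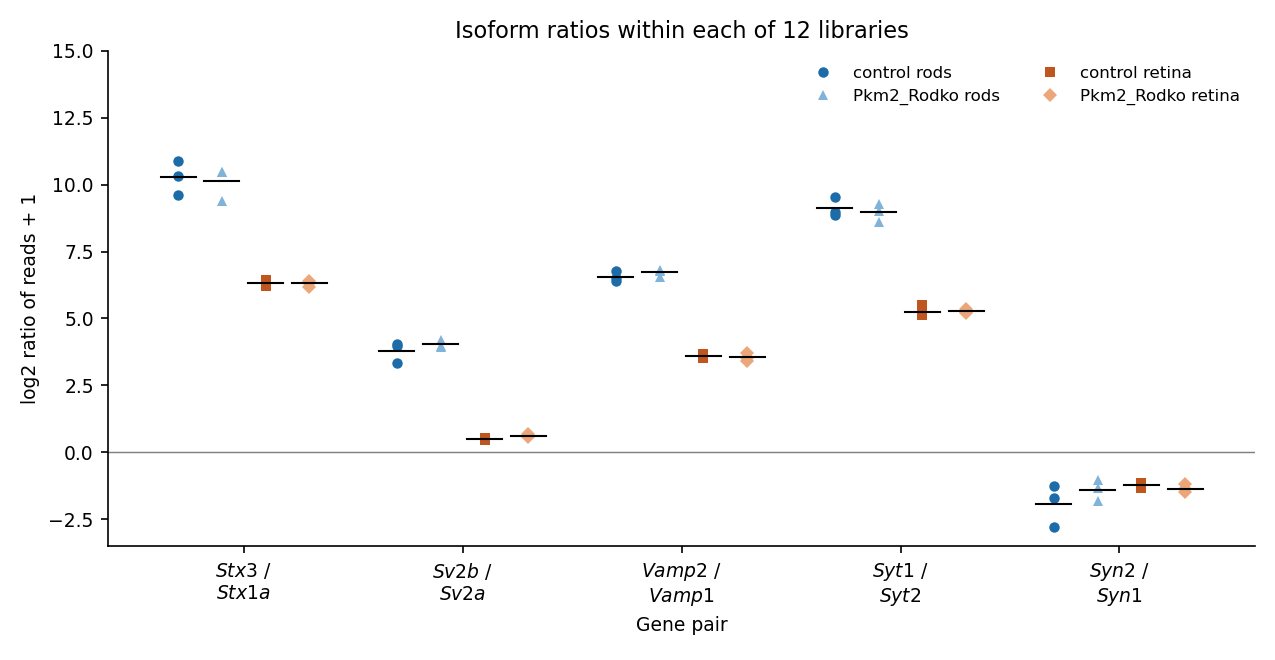
Log2 ratio of reads (y axis, with 1 read added to each gene) for 5 gene pairs in each of the 12 libraries; points are libraries and black lines group means. The rod libraries lie above the retina libraries in the first 4 pairs and overlap them in *Syn2* over *Syn1*.

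In Pkm2_Rodko mice, 10 of the 49 genes were higher in rods and 33 lower (27.4% and 38.6% of all genes), with a median of −0.96 against −0.26 over all genes. The libraries were separate from those of control mice, but both comparisons came from the same fit, with a shared scale and spread. With total-read scaling and in the deposited values the split was 2 higher and 38 lower, where 9.83% and 9.26% of all genes were higher and 54.4% and 55.2% lower. The 9 genes higher in control were all higher here, joined by *Stx5a* (0.51 ± 0.11, limma adjusted p = 9.15e-04), and the 33 lower genes were all lower in control. *Sv2b* had 2408, 2964 and 2972 scaled reads per kb in Pkm2_Rodko rods and 975, 1070 and 1049 in Pkm2_Rodko retina (log2 fold change 1.43 ± 0.09, limma adjusted p = 2.33e-09). *Stx3* had 3915, 3536 and 3542 in rods and 2111, 1988 and 2019 in retina (0.84 ± 0.07, limma adjusted p = 3.33e-08). Neither gene overlapped between the fractions. *Stx11*, *Stx19*, *Snap25* and *Snap29* did not pass here, although *Snap25* did with rods and retina of the same number blocked (−0.16, limma adjusted p = 0.0352). *Vamp8* (0.38 ± 0.14) no longer passed in 4 fits without 1 library, those without rods replicate 1 or 3 and without retina replicate 2 or 3 of this genotype (adjusted p up to 0.102). Within their families, *Stx3* took 94.8% ± 0.76 in rods and 64.8% ± 1.1 in retina, and *Sv2b* 89.8% ± 0.89 and 44.8% ± 0.94 (SD, n = 3).

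The comparison of genotypes within rods asks what rod loss of *Pkm2* changes. None of the 47 genes tested passed the adjusted threshold in rods (0.0204% of all 19584 genes did), by limma, edgeR or DESeq2, and the smallest limma adjusted p was 0.958. At an unadjusted p under 0.05 there were 7 by limma and edgeR and 5 by DESeq2, against 4.92% of all genes by limma, and 6 of the 7 were lower in Pkm2_Rodko rods, as were 3.56% of all genes. Among the genes that led their families in rods, *Stx3* differed by 0.00 ± 0.08, *Sv2b* by 0.04 ± 0.10, *Syt1* by 0.02 ± 0.09, *Vamp2* by −0.05 ± 0.08 and *Snap25* by −0.03 ± 0.08 on the log2 scale. *Syt17* had 1 read in each control rod library and 5, 7 and 7 in Pkm2_Rodko rods (deposited values 1.3, 0.7 and 1.2 against 5.1, 7.5 and 5.5). The groups did not overlap, and the ratio of 19 to 3 reads was 5.87-fold with a 95% exact counting interval from 1.73 to 31.0 (limma unadjusted p = 0.00728, adjusted p = 0.958).

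*Syn1* had deposited values of 112.8, 167.1 and 128.2 in control rods and 98.3, 74.0 and 91.1 in Pkm2_Rodko rods (log2 fold change −0.62 ± 0.20, limma adjusted p = 0.958). *Syt15* had 25.6, 36.5 and 27.1 against 14.2, 17.2 and 15.1 (−0.88 ± 0.31, limma adjusted p = 0.958). The groups did not overlap in either gene. Among the others with a low unadjusted p were *Syt5* (−1.07 ± 0.42), *Syt4* (−0.47 ± 0.20) and *Syt11* (−0.29 ± 0.13). In all, 4 genes were lower and 2 higher without overlap of libraries, where 5.57% and 4.51% of all genes were.

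No marker gene passed the adjusted limma test between genotypes in rods either, while 7 bipolar, 5 amacrine, 5 Müller glia, 2 ganglion cell and 2 horizontal cell markers had an unadjusted p under 0.05. Of their log2 fold changes, those of amacrine markers were below 0 in 11 of 12, those of ganglion cell markers in 10 of 10, Müller glia markers in 10 of 10, bipolar markers in 11 of 14, cone markers in 8 of 10 and horizontal cell markers in 3 of 5, with medians of −0.49, −0.40, −0.35, −0.36, −0.10 and −0.35 in that order. Rod markers were below 0 in 2 of 17 (median 0.05). Of all genes tested in rods, 48.7% were below 0, and 4.92% had a limma unadjusted p under 0.05. The summed level of amacrine markers was 2474 to 3511 scaled reads in control rods and 2090 to 2462 in Pkm2_Rodko rods, that of ganglion cell markers 1793 to 2273 and 1266 to 1969, and that of Müller glia markers 9026 to 11707 and 7748 to 9258. The part of other cells in the lower values of *Syn1* and the synaptotagmins was not tested.

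In whole retina, none of 49 genes passed the threshold (0.00413% of all 24230 genes did), by limma, edgeR or DESeq2, with 2 at an unadjusted p under 0.05 by each of the 3 tools (4.17% of all genes by limma). Both were lower, as were 2.05% of all genes. *Stx8* had deposited values of 435.4, 387.9 and 384.3 in control retina and 341.8, 312.9 and 336.2 in Pkm2_Rodko retina, lower without overlap (log2 fold change −0.28 ± 0.10, limma adjusted p = 0.981). *Syt4* had 2455.5, 2359.6 and 2214.0 against 1863.0, 1987.8 and 2311.9, and its groups overlapped (−0.19 ± 0.09, limma adjusted p = 0.981). *Stx2* had 170.5, 160.9 and 158.7 against 230.0, 185.4 and 187.5, higher without overlap (0.29 ± 0.14, limma adjusted p = 0.981). In all, 5 genes were lower and 1 higher without overlap, where 4.80% and 4.63% of all genes were. In the same comparison the log2 fold changes of Müller glia markers were below 0 in 10 of 10 (median −0.14), of bipolar markers in 13 of 14 (−0.15), of cone markers in 9 of 10 (−0.088), of amacrine markers in 9 of 12 (−0.051), of ganglion cell markers in 8 of 10 (−0.037), of horizontal cell markers in 4 of 5 (−0.048) and of rod markers in 2 of 17 (0.092), with 0 of them called by limma and 3 rod, 2 bipolar and 1 Müller glia marker at an unadjusted p under 0.05. Of all genes tested in retina, 51.0% were below 0. The part of other cells in the values of *Stx8* and *Syt4* was not tested.

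The genotype effect in rods minus that in retina was called for 0 of the 49 genes and for 0% of all 22539 genes by limma. *Pkm* itself was not called (−0.54 ± 0.10, limma adjusted p = 0.9997), with genotype differences of −1.20 ± 0.08 in rods and −0.65 ± 0.07 in retina. A lack of calls by this test therefore does not show that the effects were equal. At an unadjusted p under 0.05 there were 4 of the 49 (4.27% of all genes) by limma and 6 each by edgeR and DESeq2, with no member called by either. The 4 were *Syt17* (1.67 ± 0.49), *Syn1* (−0.60 ± 0.19), *Syt5* (−1.0 ± 0.42) and *Syt15* (−0.63 ± 0.27), each at a limma adjusted p of 0.9997, and 3 of them were below 0, as were 2.67% of all genes at that threshold.

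**Figure D5:**
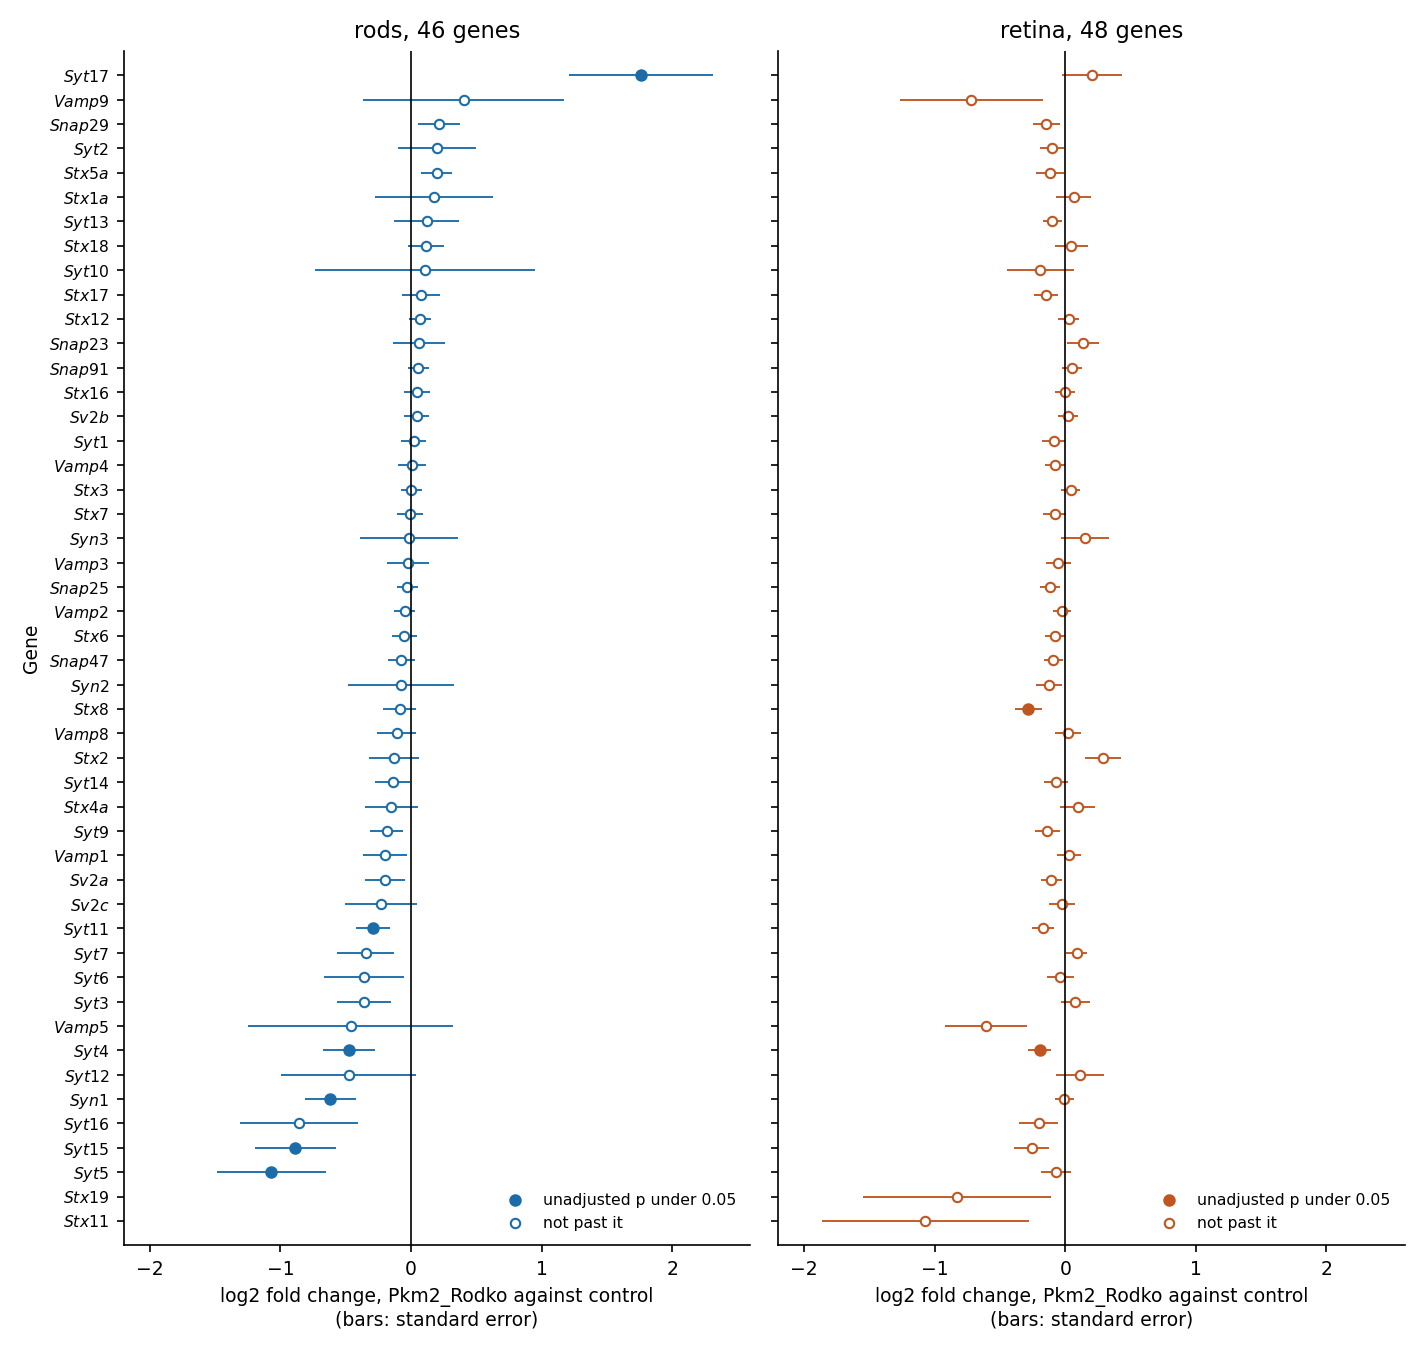
Log2 fold change of Pkm2_Rodko against control (x axis) for 46 of the 47 genes tested in rods (left) and 48 of the 49 in retina (right); bars are standard errors and filled circles had an unadjusted p under 0.05. *Stx3*, *Sv2b*, *Syt1*, *Vamp2* and *Snap25* lie between −0.12 and 0.04 on both sides, and *Syt17* lies farthest to the right in rods.

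Other genes of the vesicle cycle were counted in 3 lists, beside 26.7% higher and 38.6% lower of all genes in control, or 9.74% and 54.2% with total-read scaling. Of 40 fusion regulators tested, 11 were higher and 22 lower in control rods than in control retina (median −0.67; 10 and 22 in Pkm2_Rodko mice), and 5 and 30 with total-read scaling. *Cplx4*, a complexin of ribbon synapses, was highest (1.61 ± 0.09), and *Stxbp6* and *Erc1*, an active zone protein, lowest (−3.53 ± 0.21 and −3.40 ± 0.33). Of 22 other vesicle membrane proteins, 9 were higher and 8 lower (median −0.17; 8 and 10 in Pkm2_Rodko mice), and 4 and 12 of 23 with total-read scaling. *Slc17a7*, which encodes the glutamate transporter VGLUT1, and *Scamp5* were highest (1.34 ± 0.10 and 1.07 ± 0.07). *Synpr* (synaptoporin) and *Slc17a6* (VGLUT2), the latter also on the ganglion cell list, were lowest (−3.07 ± 0.19 and −2.95 ± 0.17). Of 29 genes of vesicle recycling, 13 were higher and 7 lower (median 0.16; 13 and 8 in Pkm2_Rodko mice), whereas 3 were higher and 17 lower with total-read scaling. *Ap2a2*, a subunit of the clathrin adaptor AP-2, and *Clta*, a clathrin light chain, were highest (1.43 ± 0.07 and 0.95 ± 0.07), and *Ston1* and *Sh3gl3* (endophilin A3) lowest (−3.84 ± 0.47 and −3.19 ± 0.53). Each of these named genes passed the limma test, and none of the 3 lists held a gene called between genotypes in rods or in retina (0.0204% and 0.00413% of all genes were). At a limma unadjusted p under 0.05 in rods, the lists in that order held 7 of 40, 2 of 20 and 1 of 29 genes (4.92% of all genes). In retina they held 2 of 41, 0 of 23 and 2 of 29 (4.17% of all genes).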

How the data were processed

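As its values show, the deposited signal of each gene equals its reads over a library size factor. Those factors matched medians of ratios within rods and within retina, and values of rods and retina therefore do not share a scale. Whole reads were recovered from the smallest step of each library (99.975% of positive values whole within 0.05 deposited units; 99.925% to 100% per library). The submitters' processing notes name CASAVA 1.8.2, HISAT2, DESeq2, edgeR and GRCm39; the counter, annotation and strand setting are not given in the sources used here. All sample columns were used.

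For rods against retina, reads were scaled by TMM over the 12 libraries (edgeR 4.0.16) to a mean effective size of 18053709 and tested on log2(value + 1) with limma 3.58.1 (trend; 4 group means; mean of at least 1). Fold changes are on that scale, which understates those of low genes. Genotypes were compared on the deposited values within a fraction by the same test, since 6 libraries share a scale there. p-values were adjusted by Benjamini-Hochberg over all genes tested, with a threshold of 0.05. The design assumed scaled values and limma; recovered reads were also tested by edgeR (quasi-likelihood) and by DESeq2 1.42.0. Levels per kb used the union exon length of GENCODE M21 by gene identifier, found for all 51 genes. Counting intervals are exact (95%) and cover counting error only. Exon overlaps come from the same annotation. Ratios were tested with Python 3.11.15. Scripts were tested on simulated data.

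Libraries held 13458890 to 22790074 reads, and 3 libraries per group limit the precision. Replicates differed beyond sampling noise in all 12 pairs within groups. The labels do not tie libraries to animals, so p-values measure the spread between these samples, which may be technical. Rods and retina of the same genotype and number deviated together (r of 0.27 to 0.56 in all 6 pairs over 12730 genes) and the labels describe the retina RNA as taken before the pulldown; the fit with the number as a block was an alternative. Members, gene lists and tests were chosen with earlier results of these data known. Named genes were those of the 6 ratios, the most abundant of each family, the 5 largest differences in each direction between control rods and retina, the 3 smallest p in each genotype comparison and the 2 extremes at each end of the pathway lists; others are given by range or count, and *Syt5*, *Syt4* and *Syt11* were named after their p in rods was seen. Results of some genes that this rule names, 1 of the 6 ratios among them, are not reported here, while these genes stay in the counts, medians, family sums and adjustments. *Sept4* was not found among the horizontal cell markers.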

Additional observations from a re-analysis of the deposited data

How the results depend on the processing

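Counts of higher and lower genes between rods and retina rest on the scale. With total-read scaling and in the deposited values, 2 genes were higher in rods in each genotype, and 0 at a log2 fold change of at least 1. On the TMM scale, 1 gene in each genotype was higher by at least that much. The counts of lower genes kept within 1.5 times of 37 and 33 under all alternatives. With RLE scaling the split was 6 higher and 37 lower in control and 9 and 34 in Pkm2_Rodko mice. Leaving out 1 library gave 6 to 9 higher and 36 to 37 lower genes in control, and 9 to 10 and 33 to 34 in Pkm2_Rodko mice. In control, the log2 fold changes that turned below 0 were, with total-read scaling and in the deposited values, −0.29 and −0.34 for *Stx12*, −0.25 and −0.29 for *Stx18*, −0.36 and −0.40 for *Stx5a*, −0.54 and −0.58 for *Stx6*, −0.26 and −0.31 for *Stx8*, −0.33 and −0.37 for *Syt1*, −0.062 and −0.11 for *Vamp2*, and −0.050 and −0.10 for *Vamp8*. In Pkm2_Rodko mice they were −0.27 and −0.29 for *Stx12*, −0.21 and −0.22 for *Stx18*, −0.070 and −0.089 for *Stx5a*, −0.53 and −0.55 for *Stx6*, −0.092 and −0.11 for *Stx8*, −0.24 and −0.26 for *Syt1*, −0.11 and −0.13 for *Vamp2*, and −0.21 and −0.23 for *Vamp8*. The scaling itself moves the median gene, from −0.29 to −0.80 and −0.83 in control and from −0.26 to −0.79 and −0.81 in Pkm2_Rodko mice.

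In control libraries alone, 3 against 3, the exact permutation test cannot go below 0.1, and the differences of log2 ratios were 3.94 for *Stx3* over *Stx1a*, 3.29 for *Sv2b* over *Sv2a*, 2.96 for *Vamp2* over *Vamp1* and 3.87 for *Syt1* over *Syt2*; in Pkm2_Rodko libraries alone they were 3.81, 3.40, 3.17 and 3.69. *Syn2* over *Syn1* passed (exact permutation, adjusted p = 0.0368) only without Pkm2_Rodko rods replicate 2, at −0.49 (range −0.49 to −0.14 over the fits without 1 library). The replicate block of rods and retina gave 8 higher and 37 lower genes in control and 10 and 34 in Pkm2_Rodko mice; beyond *Stx18* and *Snap25* it changed no call of a member. Between genotypes, same-numbered libraries did not deviate together (r of −0.29 to 0.04), while r was −0.34 to 0.39 between libraries of different number. The replicate block, which pairs the same number, called 0 members in rods and in retina (6 and 1 at a limma unadjusted p under 0.05). Without length scaling 37 of 39 shares moved by more than 1 SD, and *Sv2b* then led its family in control retina (56.1%). In scaled reads, the order in control rods was *Vamp2* (23808.5), *Syt1* (23145.6), *Sv2b* (22677.2), *Snap25* (22092.2) and *Stx3* (20973.5). In control retina it was *Snap25* (26529), *Syt1* (19846.7), *Vamp2* (16977.2), *Stx3* (11456.2) and *Sv2b* (8630.9). Depth limits *Stx11*, *Stx19*, *Syt10*, *Syt17*, *Vamp5* and *Vamp9*, with at most 9 reads per rod library.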
